A study of Mus musculus with 12 samples.

Results

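In macrophages activated with interferon gamma (IFNG), 6 of the 12 libraries of the series compare the mRNA found on polysomes with the total mRNA of the same cells, and they are described here. The 3 polysome libraries were set against the 3 total libraries, each pair joined by the replicate number in its label. The cells were macrophages grown in culture from the bone marrow of naïve female mice of the FVB strain, of which the labels give no age, and all 6 libraries came from cells that had received IFNG at 200 units/mL for 4 h. According to the protocol, roughly 10% of the cells of a preparation were lysed directly for total RNA, and the rest went through a sucrose gradient of 5 to 50%, where fractions with more than 3 ribosomes on a message were pooled. The other 6 libraries of the series have the same layout after interleukin 4 (IL4, 40 ng/mL, 4 h) and serve as a comparison. The labels do not state whether replicates stand for separate animals or cultures, so the p-values measure the spread between these libraries, which may be technical, and no untreated cells were analysed.

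A message being translated carries several ribosomes at once, and such polysomes sediment faster than free RNA, so RNA from the heavy part of a gradient represents messages under active translation. How many ribosomes a message carries is known to depend on how often translation starts on it and on how long its coding sequence is. IFNG signals through JAK kinases and switches macrophages to classical activation, with antigen presentation, antimicrobial GTPases and inflammatory mediators. In macrophages several of these products, as well as iron storage and ribosome production, are known to be controlled at the level of translation.

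The total count was 10443200 to 22014162 in the total libraries and 3189688 to 8789480 in the polysome libraries, and 3 counts corresponded to 0.190 to 1.11 CPM (counts relative to the TMM-scaled size of the library, the unit of all levels below). All 13 macrophage markers were detected and tested. Markers of other cell types were scarce, with summed levels of at most 37.9 CPM for 11 neutrophil markers, 45.6 CPM for 10 dendritic cell markers, 6.98 CPM for B cells, 10.3 CPM for T and NK cells, 81.3 CPM for stromal cells and 48.6 CPM for megakaryocytes. The summed level of neutrophil and of B cell markers was lower on polysomes, 6.10 to 10.3 against 12.2 to 37.9 CPM and 0.210 to 0.441 against 3.80 to 6.98 CPM, and the part of such cells in the differences was not tested. The polysome sums of the B cell markers rest on few counts, as 3 counts were up to 1.11 CPM. For a summed level within a fraction, fewer cells of a type and less RNA per cell cannot be told apart in bulk RNA. The polysome and total libraries of a pair came from the same preparation according to the protocol. Flt3, Ms4a1, Pax5, Cd3e, Cd3g and Cd8a had 0 counts in all 6 libraries. Other markers of the same lists were detected. Xcr1 reached 24.0, Clec9a 20.4 and Cd4 10.3 CPM in a polysome library, and Cd79b reached 6.15 CPM in a total library. One gene, Lars2, took 1.78, 12.8 and 29.3% of the reads of polysome libraries 1, 2 and 3 and 0.341, 1.39 and 2.00% of those of the total libraries. Since all levels are relative to the library, a value says how large a part of the polysome pool or of the total pool a message made up, and not how many molecules there were.

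Of 10421 features tested with edgeR's quasi-likelihood test, 1085 (10.4%) were higher and 1821 (17.5%) lower on polysomes than in total mRNA at a Benjamini-Hochberg adjusted p under 0.05, the threshold for every call below. Nearly all of these calls were at least 2-fold, 1075 (10.3%) higher and 1817 (17.4%) lower. The median log2 fold change over all features was 0.03, and 1810 features (17.4%) were higher and 1959 (18.8%) lower in every polysome library than in every total library. Below, a list is described by its calls, by its median beside this 0.03, and by the members that the naming rule picks, and members that were not called were chosen after their values were seen. With plain library totals in place of TMM scaling, the median of all features moved up by 0.30 on the log2 scale and the calls became 916 higher and 997 lower. The share of higher calls was then 47.9% in place of 37.3%. With Lars2 left out the calls were 909 higher and 1932 lower. Leaving out pair 2 left 296 higher and 934 lower, and leaving out pair 1 left 536 higher and 1436 lower.

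**Figure D1:**
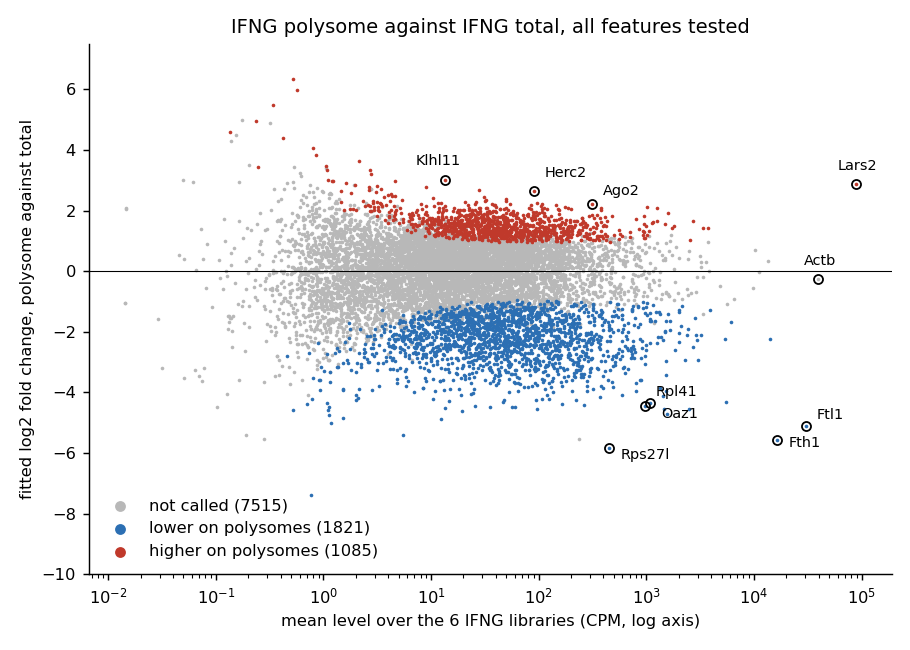
Each point is one of the 10421 features, with its mean level over the 6 IFNG libraries (CPM, log axis) against its fitted log2 fold change of polysome over total; blue and red mark the 1821 lower and 1085 higher calls. Fth1 and Ftl1 combine a high level with log2 fold changes of -5.56 and -5.11, and Lars2, at 2.87, lies farthest to the right.

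Both ferritin messages were among those most depleted from polysomes. Ferritin heavy chain Fth1 (chromosome 19, 9980600 to 9985111 of mm10), which oxidises and stores iron, stood at 34947, 20088 and 40930.4 CPM in total libraries 1, 2 and 3 and at 2734, 381 and 271 CPM in the matching polysome libraries. The fitted level was 47.3 times lower on polysomes (log2 fold change -5.56, SE 0.71, adjusted p = 0.000186). Ferritin light chain Ftl1 (chromosome 7, 45457944 to 45459886) went from 84439.9, 51669 and 39680.4 CPM in total mRNA to 3775, 934 and 1181 CPM on polysomes, 34.6 times lower (log2 -5.11, SE 0.47, adjusted p = 9.58e-05). For both genes every polysome library lay far below every total library, and polysome library 1 was the least depleted. Ferritin translation is known to be blocked when iron regulatory proteins bind the start of the message. Ireb2, which encodes one of these proteins, was higher on polysomes, at 55.9, 63.7 and 55.4 against 9.0, 16.6 and 22.5 CPM (log2 1.96, adjusted p = 0.00292). The transferrin receptor Tfrc, whose message the same proteins stabilise, was called higher (log2 1.04, adjusted p = 0.041) but not without pair 1 or pair 2 (adjusted p = 0.194 and 0.199). These 4 were the calls among 14 iron handling genes, 14.3% in each direction, beside 17.5% lower and 10.4% higher of all features. The haem oxygenase Hmox1 (log2 -0.52) and the iron exporter Slc40a1 (log2 0.28) did not pass.

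The other messages at the lower end encode proteins of several kinds. Rps27l, a p53-induced relative of a ribosomal protein, had the most negative log2 fold change by the rule for named genes, -5.83 (SE 0.68, adjusted p = 0.000142). It stood at 843, 872 and 928 CPM in total mRNA and at 71.9, 7.78 and 6.65 CPM on polysomes, so the total libraries lay close together and polysome library 1 stood above polysome libraries 2 and 3. Map1lc3a, an autophagy protein of the LC3 family, measured 35.4, 49.7 and 24.6 against 5.37, 0.631 and 0 CPM. Wfdc17, a secreted protein with a WAP domain, fell from 2422, 3834 and 2559 to 297, 109.5 and 43.6 CPM (log2 -4.70, adjusted p = 0.000137). Thymosin beta 10 (Tmsb10) and thymosin beta 4 (Tmsb4x), short peptides that bind actin monomers, were 23.5 and 19.8 times lower on polysomes. Tmsb10 is among the 12 largest lower calls and Tmsb4x is not. Dnajc4, Stra13, Snrnp25, Mrps24, Rpl41 and Pkig, an inhibitor of protein kinase A, complete the 12, with log2 fold changes from -4.54 for Stra13 to -4.46 for Pkig. All 12 were called in each fit that left out a pair, and all were also called lower in IL4, from log2 -5.79 for Fth1 to -2.67 for Dnajc4.

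**Figure D2:**
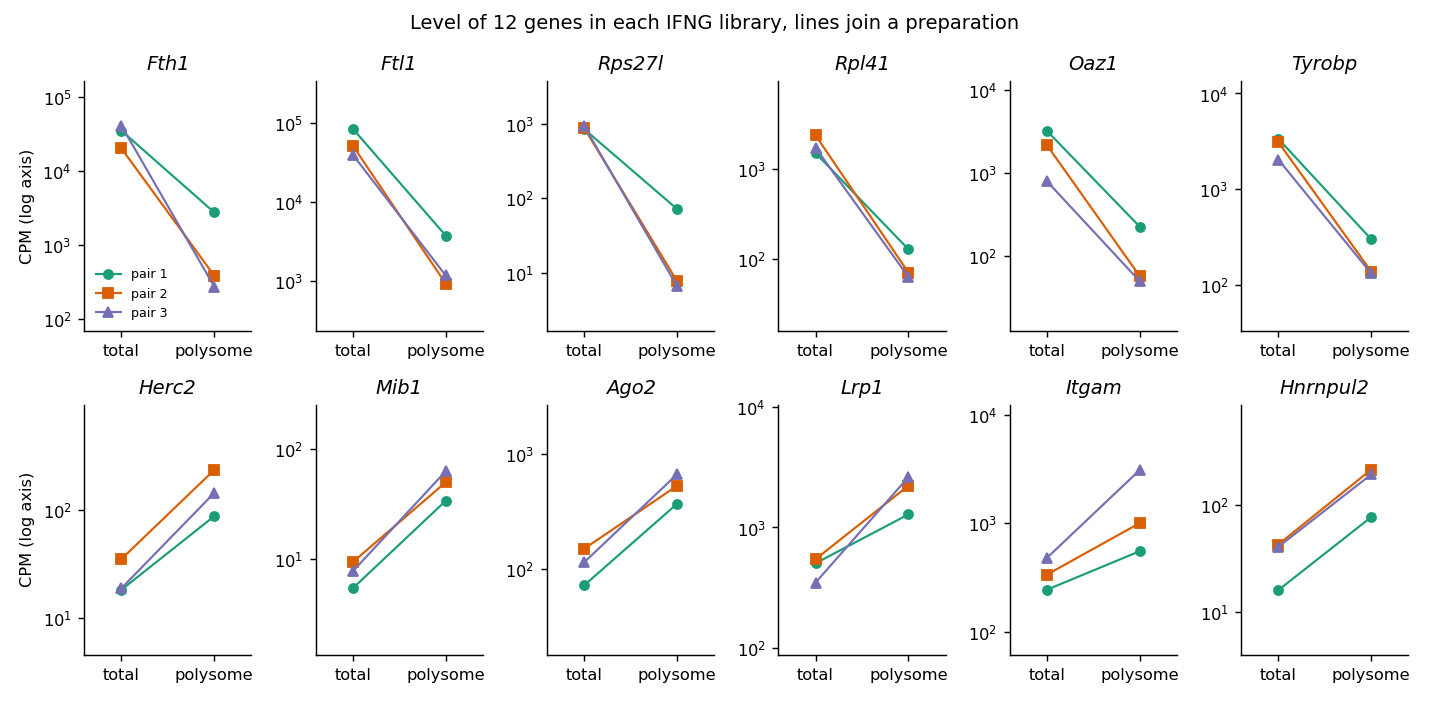
Level (CPM, log axis) of 12 genes in the total and polysome library of each IFNG preparation; each line joins the libraries of 1 pair. The 6 genes of the upper row fall in all 3 pairs, for example Oaz1 from 3240.1, 2181 and 799 to 226, 57.0 and 49.5 CPM, and the 6 of the lower row rise in all 3, for example Herc2 from 18.3, 35.2 and 18.9 to 87.8, 235 and 144 CPM.

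Messages for ribosomal proteins are the classic case of translational control, since many start with a terminal oligopyrimidine (TOP) tract, a run of C and T just after the cap through which mTOR signalling regulates their translation. Of 74 tested genes for cytosolic ribosomal proteins, 62 were lower on polysomes (83.8%, beside 17.5% of all features) and 0 higher (0%, beside 10.4%). In every polysome library 67 were lower than in every total library, as 18.8% of all features were. The median log2 fold change of the 74 was -2.43, beside 0.03 over all features. In the shortest decile of protein-coding genes by genomic span, up to 4812 bases, the median was -1.57, with 51.1% lower. Rpl41 and Rpl39, for example, span 1059 and 2705 bases, and the part of length in the values of this list was not tested. In pairs 1, 2 and 3 the list median was -1.48, -2.50 and -3.69. Rpl41, whose product is a peptide at the core of the ribosome, fell from 1495, 2353 and 1709.5 to 127, 70.2 and 62.8 CPM (log2 -4.46, adjusted p = 9.58e-05). Rpl39, also of the large subunit, fell from 269, 519 and 437 to 72.9, 21.9 and 4.43 CPM (log2 -4.26, adjusted p = 0.000796), lowest in library 3 and highest in library 1. The 12 members not called included Rps9 (log2 -0.69), Rps6 (-0.81), Rps4x (-0.21), Rpl6 (-0.38) and Rpl4 (0.35), chosen here after their values were seen. Ribosomal protein genes have many processed copies in the genome, and reads shared with such copies make single values uncertain.

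To set the TOP tract beside these values, RefSeq's promoter windows (GRCm38.p6, the assembly named mm10) were searched over the first 50 bases after the annotated start for a run of at least 8 C or T on the coding strand. Such a run was present in 37 of the 55 ribosomal protein genes with an entry (67.3%) and in 1400 of all 7615 tested features with an entry (18.4%). Ribosomal protein genes with a run had a median log2 fold change of -2.57, those without one -2.34, and over all features the medians were 0.14 and 0.02. The following 30-base windows show the run in capitals, first for 5 messages called lower and then for 3 that were not called, since both kinds carry it.
Rpl41: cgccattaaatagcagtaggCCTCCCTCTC
Rpl39: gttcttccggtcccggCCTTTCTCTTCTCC
Rps2: aaattgtcccttccgcggcgCCTCCCTCTT
Rpl15: aaagccttCTTCCTTTCCTCTggcggcagc
Rack1: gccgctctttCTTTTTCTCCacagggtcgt
Rpl4: agcgtggCCTTCTCCTCTCCCCgtcatggt
Rpl6: cgctgccttagTTCTCTTTCCCgtcttgca
Eef2: gacgtcagcggTCTCTTCCgccgcagccgc
These windows lie at chr10:128549119-128549148 (minus strand), chrX:37085173-37085202 (minus), chr17:24720083-24720112 (plus), chr14:18270965-18270994 (minus), chr11:48800350-48800379 (plus), chr9:64173406-64173435 (plus), chr5:121204521-121204550 (plus) and chr10:81176634-81176663 (plus). Rps2 and Rpl15 had log2 fold changes of -4.01 and -3.78 (adjusted p = 0.000272 and 0.000545), while Rpl4, with a run of 15, stood at 0.35 (adjusted p = 0.531). In Rpl41, Rpl39 and Rps2 the run reaches the end of the 50 bases searched, so it does not lie just after the annotated start. The annotated start is not a start mapped in these cells, so a run within the window describes the sequence and does not show where the message begins.

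A further list holds 21 other genes noted for TOP ends, mostly translation factors, with some that are none, such as vimentin (Vim), nucleolin (Ncl) and Npm1. Of the 15 with a promoter entry, 8 (53.3%) had a run in the search above, with a median log2 fold change of -0.98, against 0.33 for those without one. Of all 21 tested, 8 were lower (38.1%, beside 17.5% of all features) and 0 higher (0%, beside 10.4%). The list median was -0.23 and moved to 0.10 with plain library totals. Rack1, a scaffold on the small ribosomal subunit, fell from 1128, 1038 and 626 to 383, 222 and 133 CPM (log2 -2.01, adjusted p = 0.000884). The elongation factor subunits Eef1b2 and Eef1d, which recharge the factor with GTP, had log2 fold changes of -2.54 and -2.29, whereas the factor they serve, Eef1a1, stood at 926, 1197 and 1935 CPM in total mRNA and 1397, 3746 and 2173 CPM on polysomes and was not called (log2 0.80, adjusted p = 0.126). Eef2, which moves the ribosome along the message, did not differ either by this test (log2 -0.10, SE 0.43), and the poly(A) binding protein Pabpc1 stood at 0.25. Tpt1, a long-known TOP message, dropped from 267, 272 and 776 to 169.7, 29.0 and 15.5 CPM, although without pair 2 its adjusted p was 0.0733. Without pair 2 the lower calls were 5 of 21, with library totals 3 of 21, and without pair 3 there were 4 higher calls.

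Among 33 other initiation factors, 10 were lower (30.3%, beside 17.5% of all features) and 3 higher (9.09%, beside 10.4%). Lower were Eif5a, the hypusinated factor that helps ribosomes through difficult sequences, at 723, 168 and 252 against 3741, 2990.1 and 1319 CPM (log2 -2.95, adjusted p = 0.000357), Eif6, and the eIF3 subunits Eif3g and Eif3i (log2 -2.45 and -2.41). The mTOR target Eif4ebp1, which holds the cap-binding protein in check, was also lower (log2 -2.32). The 3 higher members were the large scaffolds Eif4g3 (log2 1.34), Eif3a (1.28) and Eif4g1 (1.15), named after their values were seen. None of the 3 was called without pair 2, with adjusted p of 0.0663, 0.147 and 0.1.

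Messages for mitochondrial proteins were also widely depleted. Of 73 tested genes for the respiratory chain and ATP synthase, 58 were lower on polysomes (79.5%, beside 17.5% of all features). In the other direction 1 was higher (1.37%, beside 10.4%). The median log2 was -2.44, with -1.82, -2.13 and -3.45 in pairs 1, 2 and 3. Ndufc1, a small subunit of complex I, fell from 191, 175 and 232 to 33.8, 5.89 and 5.17 CPM (log2 -4.23, adjusted p = 0.00021). Atp5e, the smallest rotor subunit of ATP synthase, fell from 579.6, 709.9 and 816 to 67.7, 24.4 and 35.8 CPM (17.8 times lower, adjusted p = 9.58e-05). Cox8a of complex IV and Uqcr10 of complex III were 14.1 and 15.5 times lower. In all 4 the polysome libraries lay below all total libraries. The larger ATP synthase subunits Atp5a1 (log2 0.03, adjusted p = 0.961) and Atp5b (-0.76, 0.111) were not called. The higher member was Ndufs1, the largest iron-sulphur subunit of complex I (log2 1.73, adjusted p = 0.00385, and 0.0535 without pair 2). These examples of subunits that stood apart were chosen after their values were seen.

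Mitochondrial ribosomal proteins, which are made in the cytosol, followed with 44 of 69 lower (63.8%, beside 17.5% of all features). None was higher (0%, beside 10.4%), and the median log2 was -1.89. Mrps24 went from 141, 128 and 71.1 to 14.1, 6.52 and 0 CPM, with 0 counts in polysome library 3. Mrpl54, Mrpl57 and Mrpl34 had log2 fold changes of -3.80, -3.78 and -3.68, and all of them were called in every fit that left out a pair. Mrpl4, Mrpl37 and Mrps2 were among the 25 not called (log2 -0.83, -0.51 and 0.18).

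The proteasome, which degrades ubiquitin-tagged proteins, had many lower and few higher members. Of 43 tested subunits and assembly factors, 22 were lower (51.2%, beside 17.5% of all features) and 1 higher (2.33%, beside 10.4%). The median log2 was -1.15, and 13 were lower with plain library totals. All 3 catalytic subunits of the immunoproteasome, which IFNG is known to induce for antigen processing, were lower, Psmb9 at 233, 124 and 26.2 against 1009, 1041 and 525 CPM (log2 -3.15, adjusted p = 0.000531), Psmb8 with log2 -2.59 and Psmb10 with -2.46. Their constitutive counterparts Psmb6 (log2 -2.71), Psmb5 (-2.19) and Psmb7 (-1.91) were lower as well, Psmb7 with an adjusted p of 0.0572 without pair 2. Psmg4, an assembly chaperone of the core, had the most negative value (-3.70). The higher member was Psme4, a very large activator (log2 1.83, adjusted p = 0.012), not called without pair 1 or pair 2 (0.0799 and 0.0516). The IFNG-induced activator subunit Psme2 was not called (log2 -0.36).

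The secretory and lysosomal machinery was lower in part. Among 36 genes of the secretory pathway, 12 were lower (33.3%, beside 17.5% of all features) and 2 higher (5.56%, beside 10.4%), with a median log2 of -0.03. Srp9 and Srp14, which form the part of the signal recognition particle that pauses translation, were 8.84 and 9.39 times lower, and the translocon subunit Sec61g fell from 321, 329 and 436 to 118, 30.9 and 21.8 CPM (log2 -3.06, adjusted p = 0.000884). The chaperone Hspa5, at 537, 421 and 712 CPM in total mRNA and 672, 639 and 685 CPM on polysomes, was not called (log2 0.29). Hyou1 (log2 1.17) and Pdia4 (1.03), folding helpers of the endoplasmic reticulum, were the higher pair, and neither was called without pair 2 (adjusted p = 0.109 and 0.257). Of 45 lysosomal genes, 12 were lower (26.7%, beside 17.5%) and 2 higher (4.44%, beside 10.4%), with a median log2 of -0.32. Without pair 2, 6 were lower and 1 higher, and without pair 1, 0 were higher. The lower ones were led by subunits of the proton pump, Atp6v1f (log2 -3.29), Atp6v0e (-3.23), Atp6v0b (-3.22) and Atp6v1g1 (-2.25). The proteases Ctsd and Ctss were not called (log2 -0.57 and 0.62). Tpp1 (log2 1.10), a lysosomal peptidase, was among the higher members, and it was not called when any 1 of the pairs was left out (adjusted p of 0.0565, 0.139 and 0.151 without pairs 1, 2 and 3).

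Polyamine metabolism had calls in both directions. Oaz1, the antizyme that sends ornithine decarboxylase to the proteasome and is itself made through a polyamine-driven frameshift, fell from 3240.1, 2181 and 799 to 226, 57.0 and 49.5 CPM (20.6 times lower, adjusted p = 9.58e-05). Its relative Oaz2 was 5.62 times lower (adjusted p = 0.000666). Ornithine decarboxylase itself, Odc1, was 1.94 times higher, at 45.6, 49.8 and 72.0 against 18.6, 29.0 and 41.5 CPM, but only just called (adjusted p = 0.0494) and not without pair 1 or pair 2 (0.221 and 0.141). In all, 4 of 11 members were lower (36.4%, beside 17.5% of all features), 2 without pair 2, and 1 higher (9.09%, beside 10.4%). Dohh, which completes hypusine on eIF5A, and Paox, a polyamine oxidase, were the other lower members (log2 -2.15 and -1.71), neither of them called without pair 2 (0.0705 and 0.349).

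The translation of selenoproteins reads through a stop codon with the help of a hairpin in the message. Of 7 tested members 4 were lower (57.1%, beside 17.5% of all features) and 0 higher (median log2 -2.01). Only these 7 of the 19 listed symbols occur among the features, so the values do not describe the whole class. The lipid peroxidase Gpx4 fell from 743, 539 and 299.8 to 71.4, 30.3 and 21.1 CPM (log2 -3.79, SE 0.38, adjusted p = 9.58e-05). Gpx1, the cytosolic glutathione peroxidase, fell from 1383, 838 and 1038 to 222, 241 and 343 CPM, and Gpx3 and Sephs2 were 7.32 and 5.56 times lower. All 4 were called without any single pair. Txnrd1, the cytosolic thioredoxin reductase, was not called (log2 0.86).

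At the upper end stood messages for ubiquitin ligases, receptors, kinases and transport proteins. Herc2 (chromosome 7, 56050124 to 56231800), a giant ubiquitin ligase of the DNA damage response, rose from 18.3, 35.2 and 18.9 CPM in total libraries 1, 2 and 3 to 87.8, 235 and 144 CPM on polysomes (log2 2.64, SE 0.35, adjusted p = 0.00024). Mib1, a ubiquitin ligase that activates Notch ligands, rose from 5.45, 9.42 and 7.77 to 33.7, 49.6 and 62.4 CPM (log2 2.67, adjusted p = 0.000421). Klhl11, an adaptor of a ubiquitin ligase, had the largest log2 fold change by the rule (3.02, SE 0.54, adjusted p = 0.00106), and was not called with all libraries thinned to 1 depth. Lars2, the mitochondrial leucyl-tRNA synthetase by name, stood at 4764, 16904 and 20367 CPM in total mRNA and 13779.7, 131703 and 344895 CPM on polysomes, and these groups overlapped. Whether its reads come from the Lars2 message was not tested. Further members of this end were the Wnt co-receptors Lrp5 and Lrp6 (log2 2.27 and 2.33), the stress kinases Map3k1 and Map3k5 (2.31 and 2.28), the guanine exchange factor Dock5, the lipid transfer protein Vps13d, the kinesin Kif13b and the DNA-binding protein Zbed6. Of these 12, Lrp5 was not called without pair 2 (adjusted p = 0.0511), and the others were called in each fit that left out a pair.

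Of 22 tested regulators of mRNA decay, 8 were higher (36.4%, beside 10.4% of all features) and 0 lower (0%, beside 17.5%). Their median log2 was 0.64. Ago2, the slicing Argonaute of the microRNA pathway, rose from 72.2, 149.8 and 114 to 367, 525 and 661 CPM (log2 2.23, SE 0.38, adjusted p = 0.000832), with every polysome library above every total library. Its partner Tnrc6b rose from 8.69, 11 and 10.4 to 38.1, 35.9 and 38.8 CPM (adjusted p = 0.00352). Rc3h1 (Roquin), which marks cytokine messages for decay, and Cnot1, the scaffold of the deadenylase complex, were higher too (log2 1.62 and 1.51). Without pair 1 neither was called (adjusted p = 0.0657 and 0.0625) and the count was 3 of 22, while without pair 2 it was 5 and again lacked Cnot1 (0.0515). The AU-rich element binding proteins Zfp36, Zfp36l1 and Zfp36l2, which dampen inflammatory messages, were not called (log2 0.20, 0.36 and 0.29).

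Splicing factors had 6 of 44 higher (13.6%, beside 10.4% of all features) and 2 lower (4.55%, beside 17.5%), with a median log2 of 0.63. Hnrnpul2 rose from 16, 42.6 and 40.5 to 76.6, 212 and 191 CPM (log2 2.27, adjusted p = 0.000544) and Srsf1 from 15.3, 16.6 and 41.2 to 42.6, 60.7 and 125 CPM (log2 1.65, adjusted p = 0.00363). Srsf7 and Srsf9 were the lower pair (log2 -1.72 and -1.68), both lost without pair 2 (adjusted p = 0.0663 and 0.105), which left 2 higher calls, while without pair 3 there were 19. Of 255 zinc finger genes named Zfp, 17 were higher (6.67%, beside 10.4% of all features) and 12 lower (4.71%, beside 17.5%). Zfp106 rose from 41.7, 68.4 and 76.7 to 237, 247 and 255 CPM, and Zfp771 and Zfp593 were lower (log2 -2.41 and -2.40). Without pair 2 there were 3 calls in each direction.

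Surface receptors and cytoskeletal proteins of the macrophage were called in both directions. Lrp1, a large endocytic receptor, rose from 504, 545 and 348 to 1285, 2229 and 2627 CPM (log2 2.10, SE 0.40, adjusted p = 0.00163). The complement receptor chain Itgam (CD11b) rose from 243, 336 and 479 to 553, 1006 and 3110.1 CPM (log2 1.82, adjusted p = 0.00318), highest in polysome library 3. Mertk, a receptor for dying cells, and Mrc1, the mannose receptor, were also higher (log2 1.68 and 1.42). Lower calls included signalling adaptors of immune receptors. Tyrobp (DAP12) fell from 3372, 3108 and 2047 to 302, 139 and 133 CPM (log2 -3.97, SE 0.39, adjusted p = 9.58e-05) and Fcer1g, the common Fc receptor chain, from 2296, 2167 and 2599 to 989.7, 554 and 393 CPM (log2 -1.97, adjusted p = 0.00238). Trem2, which signals through DAP12, was 7.34 times lower, and the lipopolysaccharide co-receptor Cd14 4.54 times. Of 38 integrins, Fc and scavenger receptors, 8 were higher (21.1%, beside 10.4% of all features) and 5 lower (13.2%, beside 17.5%). Without pair 2 the counts were 5 and 3, and without pair 1, 8 and 3. Among the 5, Fcgr1 and Fcgr3 (log2 -1.08 and -1.01) passed in no fit that left out a pair (adjusted p of 0.0564, 0.229 and 0.092 and of 0.0822, 0.175 and 0.112 without pairs 1, 2 and 3). Lysozyme (Lyz2), an antibacterial enzyme and macrophage marker, fell from 13650.0, 5016 and 9069 to 4655, 1979.7 and 2108 CPM (adjusted p = 0.00502). Apolipoprotein E (Apoe), which carries lipids out of the cell, varied widely between total libraries, 4123, 11233 and 770.2 CPM, and stood at 1278, 1927 and 179.5 CPM on polysomes, lower within each pair (log2 -2.11, adjusted p = 0.000761).

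In the actin cytoskeleton 12 of 32 members were lower (37.5%, beside 17.5% of all features) and 6 higher (18.8%, beside 10.4%). The median log2 was -0.72, and without pair 2 the counts were 7 and 1. Besides the thymosins, the Arp2/3 subunits Arpc1a, Arpc1b and Arpc3 were lower (log2 -2.73, -2.62 and -2.66). Higher were the large linkers vinculin (Vcl, log2 1.88), non-muscle myosin heavy chain (Myh9, 1.52), talin (Tln1, 1.5) and filamin (Flna, 1.33), of which vinculin was called without pair 2 and the others were not (adjusted p = 0.03, 0.0536, 0.0849 and 0.09). These 4 were named after their values were seen. Actin itself, Actb, stood at 46582, 42388 and 39299.6 CPM in total mRNA and 27036, 49155 and 33371 CPM on polysomes and was not called (log2 -0.27, SE 0.40), with 0.03 under plain library totals.

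Regulators of the IFNG signal were called about as often as features in general. Of 28 JAK-STAT and IRF regulators 5 were lower (17.9%, beside 17.5% of all features) and 2 higher (7.14%, beside 10.4%). Ifngr2, the signalling chain of the IFNG receptor, fell from 573, 431 and 230.2 to 85.5, 53.6 and 22.5 CPM (log2 -3.03, SE 0.41, adjusted p = 0.000255), and this call held without any single pair. The feedback inhibitor Socs3 was lower (log2 -2.05, adjusted p = 0.00459, and 0.0905 without pair 2). Socs1 stood at 40.0, 272 and 201 CPM in total mRNA and 15.8, 88.7 and 177 CPM on polysomes and narrowly missed the threshold (log2 -1.05, adjusted p = 0.0663), which it passed without pair 3 (0.0101). The interferon regulatory factor Irf1 was not called (log2 -0.69, adjusted p = 0.133), with 224, 453 and 511 CPM in total mRNA and 128, 345 and 276 CPM on polysomes. Irf7 and Irf3 were lower (log2 -1.77 and -1.61), Irf7 not without pair 1 or pair 2 (adjusted p = 0.0513 and 0.0947). Also called were Batf2 (log2 -1.49) and Pias1 (1.15). Without pair 2 the counts were 2 and 0, and without pair 1, 3 and 1.

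Of 21 interferon-induced GTPases, which attack the vacuoles of intracellular pathogens, 2 were higher (9.52%, beside 10.4% of all features) and 0 lower (median log2 0.20, and -0.04 without pair 1). Irgm1 rose from 98.5, 224 and 532 to 274, 833 and 561 CPM (log2 1.16, adjusted p = 0.045) and Gbp5 from 10.3, 31.8 and 34.5 to 25.9, 81.6 and 72.4 CPM (log2 1.25, adjusted p = 0.0314). Neither was called without pair 1 or pair 2, with adjusted p from 0.109 to 0.301, and without pair 3 there were 4 higher calls. Gbp2, at 666, 1021 and 1118 CPM in total mRNA and 711, 1339 and 805 CPM on polysomes, was not called (log2 0.00, SE 0.39, adjusted p = 0.996). Reads shared between the close copies of the Gbp family make these values uncertain.

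The antiviral genes had 10 of 41 lower (24.4%, beside 17.5% of all features) and 3 higher (7.32%, beside 10.4%). Lower were membrane proteins that block viruses, Bst2 (tetherin) at 172, 77.4 and 32.5 against 564, 452 and 374 CPM (log2 -2.58, adjusted p = 0.000519) and Ifitm3 at 1663, 1199.6 and 623 against 5569, 5014 and 3463 CPM (log2 -2.09, adjusted p = 0.000884), as well as the nucleic acid sensor Zbp1 (log2 -2.29). All 3 were called without any single pair. Higher were the RNA sensor Ddx58 (log2 1.34), Parp14 (1.16) and Oas2 (1.02), none of them called without pair 1 or pair 2 (adjusted p from 0.0942 to 0.236). Isg15 was not called (log2 -0.32, adjusted p = 0.581). Without pair 1, 6 of 40 were lower and 1 higher, and without pair 2, 3 of 41 and 0. Without pair 3, 10 of 42 were higher.

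Antigen presentation by MHC class II was lower in part. Of 10 tested genes 5 were lower (50%, beside 17.5% of all features) and 0 higher (0%, beside 10.4%). The median log2 was -1.57, and 3 were lower without pair 1 or without pair 2. The peptide-loading chains H2-DMa, H2-DMb1 and H2-DMb2 were all lower, H2-DMa from 679.9, 574 and 186 to 116, 51.5 and 45.8 CPM (log2 -2.69, adjusted p = 0.000475), and H2-DMb1 and H2-DMb2 with log2 -2.47 and -2.37. H2-Oa and H2-Eb1 were lower too (log2 -3.19 and -2.04), though not without pair 1 (adjusted p = 0.051 and 0.064) or pair 2 (0.0964 and 0.136). The invariant chain Cd74 (log2 0.67, adjusted p = 0.274) and the master regulator Ciita (log2 0.65, adjusted p = 0.334) were not called, the latter with 17.8, 53.6 and 19.2 CPM in total mRNA and 20.4, 59.7 and 59.5 CPM on polysomes.

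For class I, 4 of 11 were lower (36.4%, beside 17.5% of all features) and 2 higher (18.2%, beside 10.4%). Without pair 2 there was 1 call in each direction, and without pair 1 or with library totals there were 2 in each. Beta-2 microglobulin (B2m), the small chain of every class I molecule, stood at 2572, 1635 and 4616 CPM in total mRNA and 1439, 987 and 799 CPM on polysomes (log2 -1.35, adjusted p = 0.0254), and was not called without pair 2 or pair 3 (0.0691 and 0.139). H2-M3 was 4.43 times lower (adjusted p = 0.00127), H2-T23 2.85 times, and the peptide transporter Tap1 had a log2 fold change of -1.01; without pair 2 H2-T23 and Tap1 were not called (adjusted p = 0.184 and 0.365), nor without pair 1 (0.11 and 0.188). Erap1, which trims peptides for class I, rose from 75.4, 126 and 212 to 471, 375 and 509 CPM (log2 1.82, adjusted p = 0.00412), and the class I transactivator Nlrc5 was higher as well (log2 1.06, adjusted p = 0.0357, and 0.138 and 0.1 without pairs 2 and 3). The classical chain H2-K1 was not called (log2 -0.91), and reads shared within the H2 family limit all these values.

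Chemokines, small secreted attractants, had 10 of 22 lower (45.5%, beside 17.5% of all features) and 0 higher (0%, beside 10.4%). Their median log2 was -1.28. Ccl9 fell from 464, 324 and 350.2 to 101, 16.6 and 22.9 CPM (log2 -3.47, SE 0.48, adjusted p = 0.000269). Pf4 fell from 512, 336 and 766 to 116, 35.9 and 78.3 CPM (log2 -2.88, adjusted p = 0.000282), and Ccl8 and Cxcl14 were 4.40 and 4.51 times lower. All 4 held without any single pair. The IFNG-induced attractants of T cells did not pass. Cxcl9 stood at 3007, 4215 and 7432 CPM in total mRNA and at 2041, 2602 and 841 CPM on polysomes, with no overlap and a value just over the threshold (log2 -1.42, adjusted p = 0.0513, and 0.0283 without pair 1). Cxcl10, at 97.7, 129 and 273 CPM in total mRNA and 44.3, 86.6 and 141 CPM on polysomes, gave log2 -0.89 (adjusted p = 0.123). With plain library totals 6 chemokines were lower.

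Inflammatory mediators had 6 of 32 lower (18.8%, close to the 17.5% of all features) and 1 higher (3.12%, beside 10.4%). The median log2 was -0.37, and without pair 2 the counts were 2 and 1. Ncf4, a subunit of the phagocyte oxidase, fell from 933, 417 and 408 to 229, 84.9 and 92.3 CPM (log2 -2.15, adjusted p = 0.000492) and the acute phase protein Saa3 from 299, 119 and 151 to 80.3, 31.7 and 13.3 CPM (log2 -2.40, adjusted p = 0.00422). Tnf stood at 1139, 1755 and 628 CPM in total mRNA and 302, 667 and 587 CPM on polysomes (log2 -1.15, adjusted p = 0.0477), with the smallest gap in pair 3, and was lost without pair 1 or pair 2 (0.268 and 0.306). Il27, Gsdmd, the pore protein of pyroptosis, and Ptges were also lower (log2 -2.53, -1.70 and -1.35), and these were lost without pair 2 (adjusted p = 0.0964, 0.0834 and 0.272). The inflammasome sensor Nlrp3 was the higher member (log2 1.66, adjusted p = 0.00305). Nos2, the inducible nitric oxide synthase, at 118, 130.1 and 60.7 CPM in total mRNA and 121, 225 and 182 CPM on polysomes, was not called (log2 0.80, adjusted p = 0.154). Neither were Il1b (log2 -0.42, and 0.14 without pair 3) and Cd274, which encodes PD-L1 (log2 0.42).

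**Figure D3:**
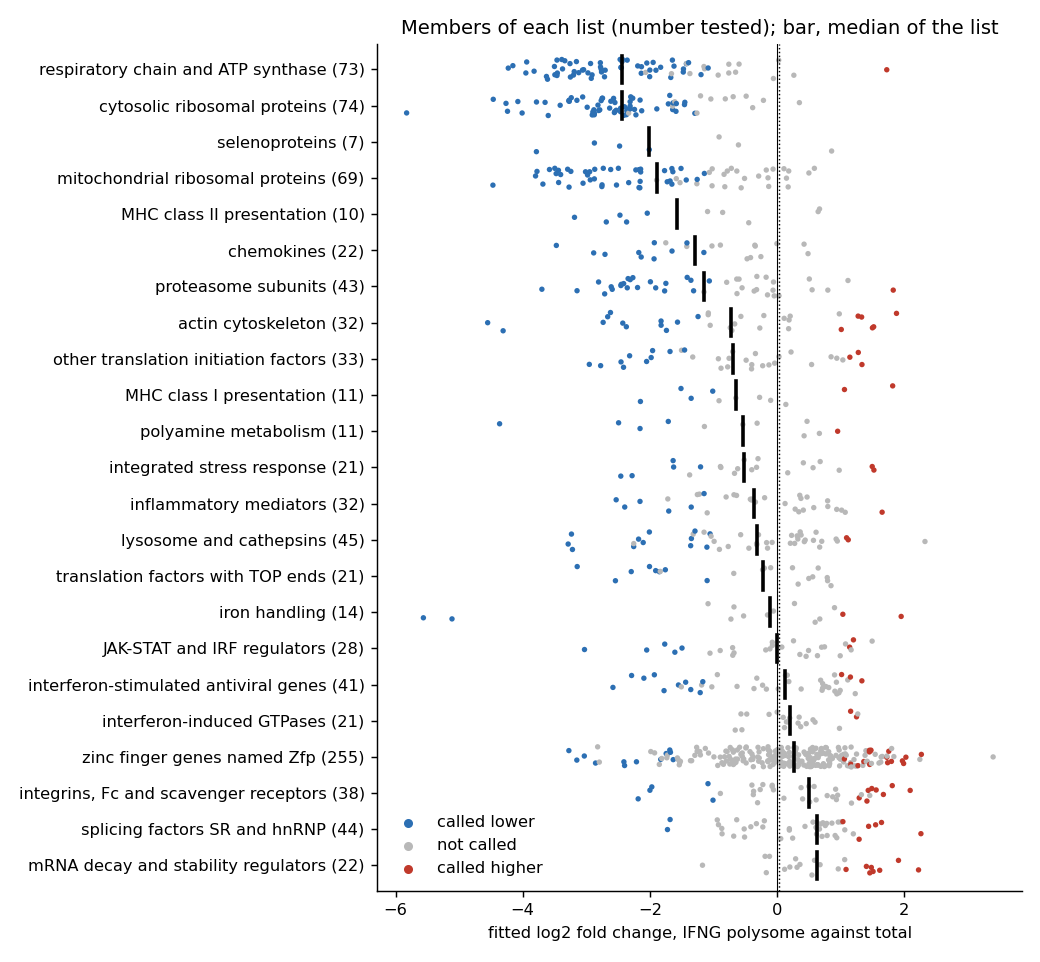
Fitted log2 fold changes (x axis) of the tested members of 23 lists, 1 row a list, with called members in blue (lower) or red (higher) and a black bar at the list's median; the dotted line is the median of all features. The rows run from the respiratory chain (median -2.44) and the cytosolic ribosomal proteins (-2.43) to splicing factors (0.63) and mRNA decay regulators (0.64).

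The integrated stress response, in which upstream reading frames are known to hold back Atf4 until stress, had 5 of 21 members lower (23.8%) and 2 higher (9.52%), beside 17.5% and 10.4% of all features. Atf4 fell from 259, 184 and 329 to 86.2, 62.2 and 99.0 CPM (log2 -1.63, SE 0.35, adjusted p = 0.0039, and 0.0525 without pair 2), with no overlap between groups. Phgdh, the first enzyme of serine synthesis, fell from 43.9, 16.6 and 20.1 to 12.9, 1.68 and 3.32 CPM (adjusted p = 0.000856), and this call held without any single pair. Trib3, Nupr1 and Atf3 were lower as well (log2 -1.63, -2.28 and -1.20), all lost without pair 2 (adjusted p = 0.257, 0.0855 and 0.0795). The higher pair were sensors of the unfolded protein response, Eif2ak3 (PERK, log2 1.53) and Ern1 (IRE1, 1.5), chosen after their values were seen and lost without pair 2 (0.142 and 0.105). Without pair 2, 1 member was called lower, without pair 1, 3, and with plain library totals 1.

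Early response genes and NF-kB components were called no more often than features in general (17.5% lower, 10.4% higher). Of 23 immediate early genes 4 were lower (17.4%), Ier5, Ier3, Junb and Atf3 (log2 -1.84, -1.61, -1.28 and -1.20), and 2 higher (8.70%), Egr2 and Fosl2 (both 1.08). No member was called without pair 2 (adjusted p from 0.0795 to 0.263 for the lower ones and 0.184 and 0.16 for the higher), and without pair 1 there was 1 call in each direction. Among 13 NF-kB genes, with 1 call (7.69%) in each direction, the precursor Nfkb1 rose from 64.0, 83.9 and 64.5 to 101, 275 and 211 CPM (log2 1.36, adjusted p = 0.0159) and the inhibitor Nfkbie was lower (log2 -1.28), both lost without pair 2 (0.138 and 0.247). Of 26 cytosolic chaperones, Hspe1 and Hspa1b were lower (7.69%) and Hsph1 higher (3.85%). Their log2 fold changes were -2.19, -1.45 and 1.13, with adjusted p of 0.0586, 0.113 and 0.176 without pair 2.

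In metabolism, glycolysis had 4 of 16 lower (25%, beside 17.5% of all features) and 0 higher. Aldoa fell from 6085, 4206 and 2478 to 1818, 1375 and 1019.8 CPM (log2 -1.55, adjusted p = 0.00495) and Gapdh, often used as a reference, from 139.5, 139 and 97.5 to 52.4, 68.3 and 37.7 CPM (log2 -1.27, adjusted p = 0.0149). Aldoc and Pfkl were the others (log2 -1.79 and -1.20), and without pair 2 none of the 4 was called (adjusted p from 0.0786 to 0.333). Without pair 1 the count was 2, and with library totals 1. Of 22 cholesterol genes 5 were lower (22.7%, beside 17.5%) and 1 was higher (4.55%, beside 10.4%), while without pair 2 the counts were 3 and 0. Among the lower ones were Ebp (log2 -2.70, adjusted p = 0.000341), Mvk (-3.27) and Pmvk (-2.12). Fdps and Mvd completed the lower members (log2 -1.55 and -1.45, 0.0535 and 0.152 without pair 2). Of 17 cytosolic aminoacyl-tRNA synthetases, Lars and Iars were higher (11.8%, beside 10.4%) and Farsa lower (5.88%, beside 17.5%), with log2 1.5, 1.21 and -1.87. None of them was called without pair 2 (adjusted p = 0.086, 0.098 and 0.0528), while without pair 3 there were 6 higher calls. Of 31 cell cycle genes 4 were lower (12.9%, beside 17.5% of all features), Cdk4 (log2 -1.68), E2f1 (-1.83), Aurka (-1.56) and Birc5 (-1.52), and 2 higher (6.45%, beside 10.4%), Cdk6 (1.39) and Mcm4 (1.35); without pair 2 there was no call (adjusted p from 0.0622 to 0.212). Among 25 alternative activation genes 2 were lower (8%) and 3 higher (12%), beside 17.5% and 10.4% of all features. Trem2 and Ccl24 (log2 -2.71, adjusted p = 0.088 and 0.0711 without pairs 1 and 2) were lower, and Mrc1 and the matrix protein Fn1 (1.80) were higher. The remaining higher call, Cd163, lay below 1 CPM in every IFNG library, so no fold is given.

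Position along the scale was related to the genomic span of a gene, that is, its length from start to end with introns, taken from RefSeq for the 9349 protein-coding features with an entry (89.7% of those tested). Across these genes Spearman's rho between span and log2 fold change was 0.53, between span and mean level -0.12, and between mean level and log2 fold change -0.04, given as descriptions since genes are not independent. In the shortest decile, up to 4812 bases, the median log2 fold change was -1.57, with 51.1% of genes lower and 0.857% higher. In the longest decile, from 112642 bases, the median was 0.89, with 2.14% lower and 28.8% higher. The medians rose at every step between, from -0.92 in the second decile to 0.89 in the ninth. Span is not the length of the message, and coding length was not analysed here, so the part that either has in the differences was not tested.

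**Figure D4:**
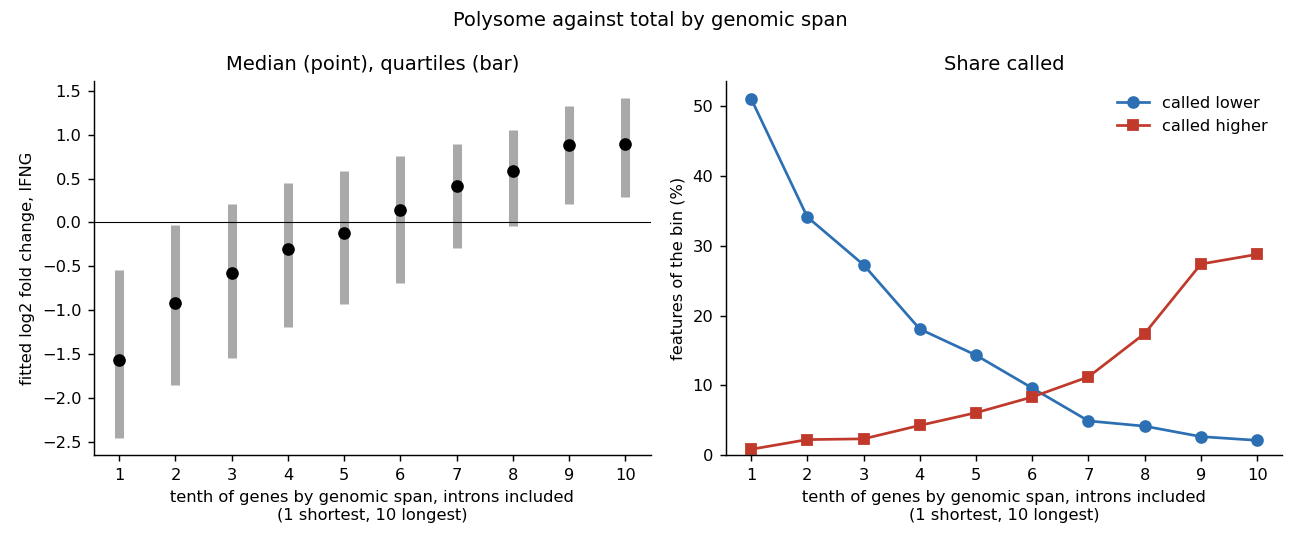
Left, median (points) and quartiles (bars) of the fitted log2 fold change in each decile of 9349 protein-coding genes ordered by genomic span with introns; right, the percentage called lower or higher in each decile. The median climbs from -1.57 to 0.89, while lower calls drop from 51.1 to 2.14% and higher calls grow from 0.857 to 28.8%.

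The 3 IFNG pairs differed in how far polysome and total mRNA lay apart. Over 6839 features with a mean of at least 10 CPM, the SD of the log2 difference within a pair was 1.38 in pair 1, 1.47 in pair 2 and 1.74 in pair 3. Features at least 8-fold lower on polysomes numbered 60, 366 and 611. Across these features Pearson's r between the differences was 0.85 for pairs 1 and 2, 0.69 for pairs 2 and 3 and 0.49 for pairs 1 and 3. Pair 3 had the shallowest polysome library and the highest share of Lars2 reads, and pair 1 the deepest and the lowest, so these features of the libraries go with the pair. Their part in the spread was not tested. Fth1 illustrates the pattern, with log2 differences of -3.68, -5.72 and -7.24 in pairs 1, 2 and 3, and Rps27l with -3.55, -6.77 and -7.08. MHC class II did not follow it, with list medians of -1.80, -1.97 and -0.95.

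**Figure D5:**
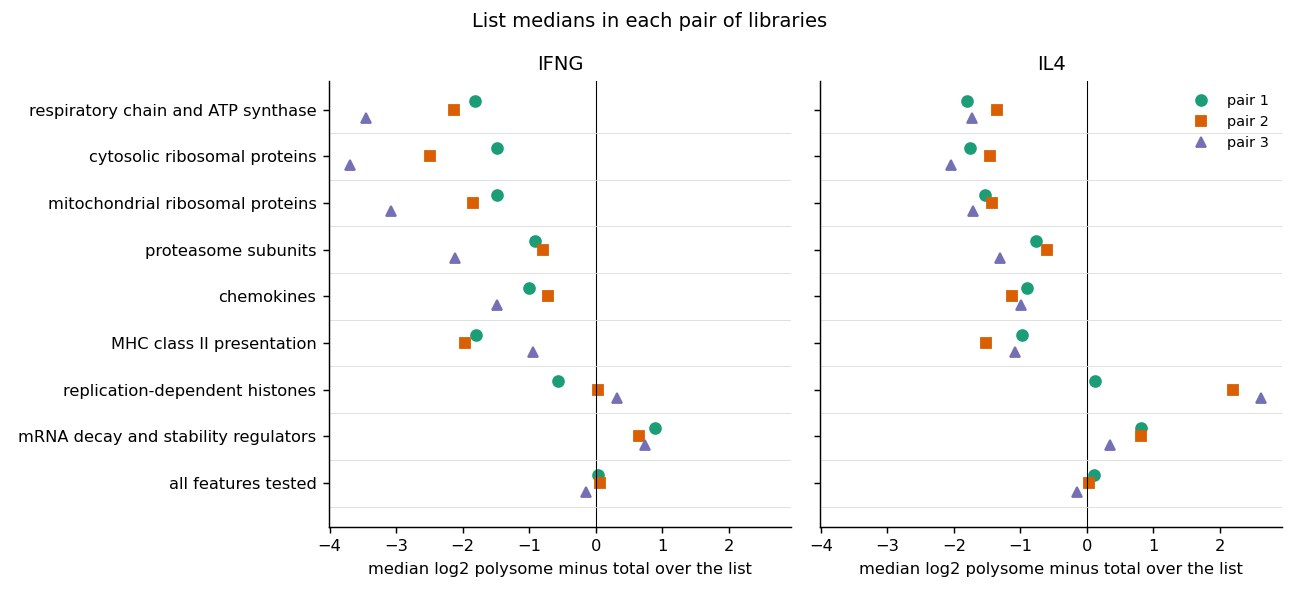
Median over each list of the log2 difference between polysome and total library, 1 symbol for each pair of libraries, in IFNG (left) and IL4 (right). In IFNG the cytosolic ribosomal proteins lie at -1.48, -2.50 and -3.69 in pairs 1, 2 and 3, and the median of all features stays between -0.15 and 0.07.

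In the IL4 libraries 1466 features (14.1%) were higher and 1835 (17.6%) lower on polysomes. The fitted log2 fold changes of both polarizations, which share no library, had a Pearson r of 0.90 and a Spearman rho of 0.90 across 6839 features. Of the 1821 features lower in IFNG, 1479 were lower in IL4 (81.2% of the IFNG and 80.6% of the IL4 calls). Of the 1085 higher ones, 787 were higher in IL4 (72.5% and 53.7%), and 0 features were called in opposite directions. Ribosomal proteins had 55 of 74 lower in IL4 (median log2 -1.73), the respiratory chain had 47 of 73 lower and 2 higher (median -1.48), and Oaz1 (log2 -4.13) and Ago2 (1.95) took the same direction there.

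The difference between polarizations was tested as an interaction. edgeR called 0 of 10421 features (0%), with 228 at an unadjusted p under 0.05. DESeq2, and edgeR with no filter on low counts, called 3, Cxcl9, Hist1h3a and Tubb2b, and limma on the authors' log2 values called Cxcl9. Cxcl9 had at most 0.123 CPM in the total libraries and 2.12 CPM in the polysome libraries of IL4, which leaves no usable level there. Tubb2b, a tubulin, stood at 154, 8.61 and 3.02 CPM in the IFNG total and 19.1, 2.31 and 1.11 CPM in the IFNG polysome libraries, and at 85.0, 72.0 and 56.5 against 0, 1.06 and 0.378 CPM in IL4, where every polysome library was near 0. Replication-dependent histones, whose messages lack a poly(A) tail, had 0 of 52 members higher and 2 lower (Hist1h2aa and Hist1h2bc) in IFNG, with a median log2 of 0.04, and 23 higher (44.2%, beside 14.1% of all features there) and 0 lower in IL4, with a median of 1.64. The pairs differed, with list medians of -0.57, 0.04 and 0.32 in IFNG pairs 1, 2 and 3 and 0.12, 2.20 and 2.63 in IL4 pairs 1, 2 and 3, so that IL4 pair 1 lay below both other IL4 pairs and within the range of the IFNG pairs. Of the 52, 16 reached an unadjusted interaction p under 0.05 and 0 passed the adjustment, and reads shared between the near-identical histone copies make single members uncertain. How far the SmartSeq2 amplification of these libraries captured messages without a poly(A) tail was not tested. Hist1h3a went from 17.9, 12.6 and 34.0 to 11.2, 8.62 and 34.0 CPM in IFNG and from 28, 38.9 and 57.9 to 91.3, 196 and 658 CPM in IL4. Atf4 had a log2 fold change of -1.63 in IFNG and -3.20 in IL4, a difference that did not pass the adjustment in edgeR's test over all features. Tubb2b and Hist1h3a were named after their values were seen.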

How the data were processed

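RNA of 12 libraries (3 each of IFNG total, IFNG polysome, IL4 total and IL4 polysome) was amplified by SmartSeq2 and sequenced. Per the file headers, the deposited tables give a whole-number count per gene symbol, and a log2 column holds the authors' normalized values for 11006 of 19549 features. Per the submitters' processing notes, HISAT, HISAT2, limma and the mm10 assembly were used, with no versions. The counting program, strand setting and annotation: not given in the sources used here. In all, 830 features join several symbols that share reads, and 673 of these were tested. Joined features held 7.66 to 12.3% of the reads of the IFNG libraries.

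Counts were filtered with filterByExpr, scaled by TMM and fitted over all 12 libraries with edgeR 4.0.16 (quasi-likelihood, robust, R 4.3.3), with the preparation (polarization and replicate number) as a block, as each protocol split 1 preparation into total and polysome RNA. The residual degrees of freedom were 4 and the median biological coefficient of variation was 0.38. The deviations of same-numbered libraries correlated at 0.27, 0.43 and -0.08 in IFNG and 0.02, 0.37 and 0.03 in IL4, so the pairing rests on the protocol. Calls use a Benjamini-Hochberg adjusted p under 0.05. Levels are CPM. Pair differences are log2 CPM with a prior count of 2.

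Named are the 12 highest and the 12 lowest calls with a mean of at least 10 CPM and 1 direction in all 3 pairs, up to 4 such calls of each list (the 2 of highest level where none was called) and 26 set genes, of which Ddit3 was not tested. Some named genes are not reported here. Predicted genes and joined features were left out. Other named genes, among them Arpc1b, Batf2, Ccl24, Cd163, Cdk6, Ddx58, Egr2, Eif2ak3, Eif3a, Eif4ebp1, Eif4g1, Eif4g3, Ern1, Fcgr1, Fcgr3, Flna, Fn1, Fosl2, H2-Eb1, H2-Oa, Hist1h2aa, Hist1h2bc, Hyou1, Mcm4, Mvd, Mvk, Myh9, Ndufs1, Nlrc5, Nlrp3, Oas2, Paox, Parp14, Pdia4, Pias1, Psmb10, Psmb5, Psmb7, Psmb8, Psme4, Ptges, Rpl15, Rps2, Tap1, Tln1, Tpp1, Tubb2b and Vcl, were chosen after their values were seen. The members and lists were chosen with earlier results of these data known. Alternatives were other scaling (RLE size factors, library totals, thinning), other filters, DESeq2 1.42.0, limma 3.58.1 on the authors' log2 values, no block, the 6 IFNG libraries alone, each replicate left out, and Lars2 or joined features left out. The scripts were tested on simulated data.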

Additional observations from a re-analysis of the deposited data

How the results depend on the processing

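Over the alternatives run, 0 features were called in the opposite direction. The total of 2906 calls was 1913 with plain library totals, 1935 with all libraries thinned to the smallest total, and 1230 to 3457 when 1 IFNG replicate was left out. Higher calls, 1085 in the report, were 637 with the 6 IFNG libraries alone, 689 after thinning, and 296 to 1426 with 1 IFNG replicate left out. Lower calls, 1821 in the report, were 997 with library totals and 934 to 2031 with 1 IFNG replicate left out. Without the replicate block there were 931 higher and 1769 lower calls, 2700 in all. The interaction, with 0 calls in edgeR, had 3 with no filter, 3 with DESeq2 and 1 with limma. Library totals moved the median of all features by 0.30 on the log2 scale and thinning by 0.12. Single genes near no difference changed sign. Actb was 0.0251 with library totals. Gbp2 was -0.00662 with no filter, -0.0462 with the 10 CPM filter, -0.00380 with limma, -0.0368 with the 6 IFNG libraries, -0.0779 with Lars2 left out, -0.0215 with joined features left out and -0.13 to 0.27 with 1 IFNG replicate left out. With 1 IFNG replicate left out, Il1b ranged from -1.0 to 0.14, Ppbp from -3.05 to 0.45 and S100a9 from -0.97 to 0.42. Ppbp was -0.0612 with no filter, -0.0828 with Lars2 left out and -0.0149 with joined features left out, and S100a9 was 0.000419 with library totals. Outside the main counts, 164 values lost and 17 gained a call, 278 moved, 16 changed sign and 3404 kept their side. The cause of these changes was not tested. Depth limits low genes, since 3 counts are up to 1.11 CPM in the IFNG polysome libraries.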

Other observations

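Acta1, the actin of skeletal muscle, was singled out after its values were seen. It stood at 369, 505 and 274 CPM in the IFNG total libraries and at 285, 2.52 and 1.11 CPM in polysome libraries 1, 2 and 3, so that it was nearly absent from 2 polysome libraries and close to its total level in the first. In IL4 it stood at 185, 158 and 89.9 CPM in total mRNA and 0.954, 2.12 and 629 CPM on polysomes, where the high library was the third. The log2 fold change in IFNG was -5.54, with an adjusted p of 0.282 in edgeR's test.

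Gene groups differed in how the 3 IFNG pairs lined up. The median difference of the mitochondrial ribosomal proteins was -1.48, -1.84 and -3.07 in IFNG pairs 1, 2 and 3, that of the chemokines -1.01, -0.72 and -1.49, and that of class I presentation genes -1.29, -0.73 and 0.21. These orders were not tested.

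The log2 differences of the 6839 features with at least 10 CPM were also set beside those of the IL4 pairs, with which the IFNG pairs share no library. Pearson's r was 0.92 between the pairs numbered 1, 0.87 between those numbered 2 and 0.73 between those numbered 3. IFNG pair 1 had an r of 0.79 with IL4 pair 2 and 0.48 with IL4 pair 3. IFNG pair 3 had an r of 0.61 with each of IL4 pairs 1 and 2. IFNG pair 2 had its highest value, 0.91, with IL4 pair 1. Whether a number marks a shared day or batch is not stated in the labels.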
